A study of Homo sapiens with 4 samples.

Results

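The NRF2 pathway antioxidant genes are 10 genes of the cellular defence against oxidants, chosen by name: the transcription factor NFE2L2, which encodes NRF2, its repressor KEAP1, and the targets HMOX1, SRXN1, OSGIN1, NQO1, TXNRD1, GCLC, GCLM and SLC7A11. All 10 were listed among the 28283 genes of the expression table, and all 10 passed the filter of an FPKM (a read level corrected for exon length and for library size) of at least 1 in either input library, which kept 12268 genes. NRF2 binds antioxidant response elements, short DNA motifs in the promoters of genes for glutathione synthesis, thioredoxin reduction and heme breakdown. KEAP1 holds NRF2 in the cytoplasm and directs it to degradation until oxidants or electrophiles modify KEAP1. A549, a human lung adenocarcinoma line, is known to carry a mutant KEAP1, and NRF2 targets are known to be highly expressed in it.

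RNA-seq and m6A-seq were performed on A549 cells with a control vector (shNC, PLKO_1 in the labels) and on A549 cells with an shRNA against YTHDF2 (shY2-2). YTHDF2 is a reader protein that binds N6-methyladenosine (m6A) in mRNA and is known to speed the decay of bound transcripts. Both were stable lentiviral lines selected with puromycin and grown in RPMI medium with fetal bovine serum, and from each line the poly(A) RNA was fragmented and sequenced once without selection (input) and once after pull-down with an antibody to m6A (IP), which makes 4 libraries. With 1 library of each kind per condition, no difference has a replicate check or a p-value between the conditions, and an effect of this 1 shRNA on other transcripts cannot be told apart from the loss of YTHDF2. In bulk RNA, fewer cells that express a gene and less RNA per cell cannot be told apart either.

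The targeted gene was compared first. YTHDF2 was at 3.56 FPKM in shNC and 1.02 FPKM in shY2-2, a log2 ratio of -1.18. Here and below the log2 ratio is log2((FPKM shY2-2 + 1)/(FPKM shNC + 1)), and the added 1 makes changes at low FPKM look smaller than they are. The 6 epithelial markers EPCAM, KRT7, KRT8, KRT18, KRT19 and CDH1 were all detected, with a summed FPKM of 1597 in shNC and 1021 in shY2-2, and all 6 had negative log2 ratios, from -0.95 for KRT19 to -0.46 for EPCAM. The part of this epithelial shift in the values below was not tested. Of 7 markers of blood cells, fibroblasts and endothelium, 2 passed the filter (CD68, at an FPKM of 12.2 in shNC and 10.2 in shY2-2, and COL1A1, at 0.834 and 1.64). The other 5, among them the defining markers PTPRC, PECAM1 and VWF, had an FPKM of at most 0.395 (COL1A2 in shNC). The depth of the libraries was not stated. Among single-exon genes, the commonest value of FPKM times length was 48.22 in shNC and 38.67 in shY2-2. The ratio of these values was 1.25. It would give the relative depth only if the commonest value stood for 1 fragment. Only 20.5% (shNC) and 19.4% (shY2-2) of low values were whole multiples of it within 2%, so the relative depth remains unknown.

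The sequences below lie under the m6A peaks that each gene had in both conditions, and they are shown because they are the letters behind the peaks described later. GGAC is the core most often found at m6A sites, and DRACH is the wider consensus (in which D stands for any base but C, R for a purine and H for any base but G). Each window has 30 bases of the spliced transcript, with the motif in capitals. The motif shown is the one closest to the middle of the stretch shared by the strongest overlapping pair of peaks, which is the pair with the highest lower fold enrichment among those with bases in the gene's canonical transcript. These are reference letters of GRCh38, and which adenosine in a peak was methylated was not measured.

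For 7 genes that stretch held GGAC, and the window is centred on it. NFE2L2 (3′-UTR, chr2:177230390-177230419, − strand), KEAP1 (3′-UTR, chr19:10486568-10486597, − strand), NQO1 (coding, chr16:69713042-69713071, − strand), GCLC (5′-UTR, chr6:53545068-53545097, − strand), TXNRD1 (coding, chr12:104339224-104339253, + strand), SRXN1 (3′-UTR, chr20:646950-646979, − strand) and OSGIN1 (3′-UTR, chr16:83966063-83966092, + strand) read as follows.
NFE2L2: ataaatactgtatGGACaaaaaatggcatt
KEAP1: tgtacaaaaaccgGGACtaaaagaaaagac
NQO1: aagggatccacggGGACatgaatgtcattc
GCLC: gcggcgagctagcGGACgcaaagactgggc
TXNRD1: ccaaaaagcagctGGACagcacaattggaa
SRXN1: agttcaataataaGGACaagagcttttccc
OSGIN1: cctgctggatgcaGGACccgtccaaagatg
Of these 7, the GGAC of GCLC was the only one that did not also complete a DRACH, since the base after it is G.

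For HMOX1, GCLM and SLC7A11 the shared stretch held no GGAC. The DRACH closest to its middle is shown instead, a choice made after the values were seen. All 3 lie in 3′-UTRs: HMOX1 at chr22:35393887-35393916 (+ strand), GCLM at chr1:93888853-93888882 (− strand) and SLC7A11 at chr4:138164292-138164321 (− strand).
HMOX1: tggcagctgtctcAAACCtccaaaagccct
GCLM: ctttcgtcatattTGACAgtatgttgtctg
SLC7A11: tttcatcttatggAAACTcttgatgcatgt
The shared stretch of HMOX1 had 9 DRACH motifs, and those of GCLM and SLC7A11 had 3 each.

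The RNA of 7 of the 10 genes was higher in the shY2-2 input library and that of 3 was lower. Among all 12268 genes kept, 6166 were higher and 6102 lower. The median log2 ratio of the 10 genes was 0.47, beside 0.00 over all genes kept. HMOX1, SRXN1 and OSGIN1 had log2 ratios above 1, the size of change used as a call here. This is 3 of 10 genes, beside 121 of 12268 genes kept (0.986%). None of the 10 had a log2 ratio below -1, beside 262 of all genes kept (2.14%). The 10 genes were chosen with earlier results of these data known, so these comparisons describe the list and do not test it. Added up, the 10 genes had an FPKM of 905 in shNC and 1477 in shY2-2.

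**Figure D1:**
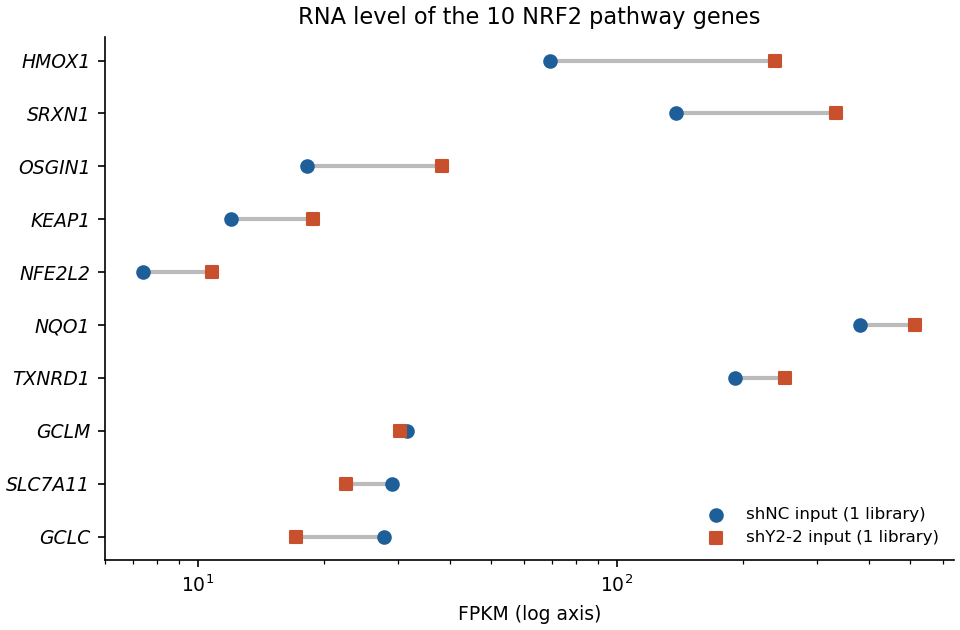
FPKM of each of the 10 genes (horizontal log axis) in the shNC input library (blue circles) and the shY2-2 input library (red squares), 1 library each, ordered by log2 ratio. HMOX1, SRXN1 and OSGIN1 have the widest gaps, with the shY2-2 value higher, while the shY2-2 values of SLC7A11 and GCLC lie below their shNC values.

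The factor and its repressor were both moderately higher in shY2-2. NFE2L2 (ENSG00000116044, chr2:177227595-177392697, − strand) had an FPKM of 7.41 in shNC and 10.8 in shY2-2, a 1.46-fold difference and a log2 ratio of 0.49. This was the lowest level of the 10 genes in both libraries. The NFE2L2 ratio was at percentile 89.4 among the 500 genes nearest to it by mean FPKM. KEAP1 (ENSG00000079999, chr19:10486120-10503741, − strand), the adaptor that brings NRF2 to a ubiquitin ligase, had an FPKM of 12.0 in shNC and 18.8 in shY2-2, a log2 ratio of 0.61. Its ratio was at percentile 94.8 among its 500 closest genes. Neither gene reached the size used as a call. NFE2L2 shares 2037 nt of exon sequence on the same strand with AC019080.1, which had an FPKM of 0.412 in shNC and 0.164 in shY2-2.

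HMOX1 had the highest log2 ratio of the 10. HMOX1 (ENSG00000100292, chr22:35380361-35394214, + strand), heme oxygenase 1, cleaves heme to biliverdin, iron and carbon monoxide. Its FPKM was 69.4 in shNC and 238 in shY2-2, which is 3.44-fold higher, with a log2 ratio of 1.77. It ranked 27 from the highest of the 12268 genes kept. SRXN1 (ENSG00000271303, chr20:646615-653370, − strand), sulfiredoxin, restores over-oxidised peroxiredoxins. SRXN1 had an FPKM of 138 in shNC and 334 in shY2-2, 2.42-fold higher, with a log2 ratio of 1.27 and rank 66 from the highest. OSGIN1 (ENSG00000140961, chr16:83948282-83966332, + strand), an oxidative stress-induced growth inhibitor, had an FPKM of 18.2 in shNC and 38.3 in shY2-2, 2.10-fold higher. Its log2 ratio of 1.03 lay just above the limit and fell to 0.90 with a pseudocount of 5. Among the 500 genes closest in mean FPKM, the ratios were at percentile 99.8 for HMOX1, 99.6 for SRXN1 and 98.8 for OSGIN1.

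The most abundant genes of the set, NQO1 and TXNRD1, were also higher in shY2-2, by less. NQO1 (ENSG00000181019, chr16:69706996-69726951, − strand) reduces quinones with NADH or NADPH. Its FPKM was 381 in shNC and 515 in shY2-2, a 1.35-fold difference and a log2 ratio of 0.44, at percentile 87.8 among its closest genes. TXNRD1 (ENSG00000198431, chr12:104215779-104350305, + strand), cytosolic thioredoxin reductase, had an FPKM of 191 in shNC and 252 in shY2-2, a log2 ratio of 0.40 at percentile 81.2. The same-strand gene EID3 and the pseudogene RPL18AP3 lie within the span of TXNRD1. They share no exon sequence with it, and RPL18AP3 had an FPKM of 205 in shNC and 255 in shY2-2.

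GCLC, GCLM and SLC7A11 had log2 ratios below 0. GCLC (ENSG00000001084, chr6:53497341-53616970, − strand) encodes the catalytic subunit of glutamate-cysteine ligase, which makes the first bond of glutathione. Its FPKM was 27.8 in shNC and 17.1 in shY2-2, 1.63-fold lower, and its log2 ratio of -0.67 was at percentile 6.68 of all genes kept. GCLC shares 529 nt of exon sequence on the same strand with AL033397.1, at an FPKM of 0.941 in shNC and lower in shY2-2. GCLM (ENSG00000023909, chr1:93885205-93909456, − strand), the modifier subunit of the same enzyme, had an FPKM of 31.5 in shNC and 30.4 in shY2-2. Its log2 ratio of -0.05 lay close to 0, unlike that of the catalytic subunit. SLC7A11 (ENSG00000151012, chr4:138164097-138242349, − strand), the transporter that imports cystine in exchange for glutamate, had an FPKM of 29.0 in shNC and 22.6 in shY2-2, a log2 ratio of -0.34. None of the 3 reached a log2 ratio of -1, and GCLC was the only one more than 1.5-fold lower.

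**Figure D2:**
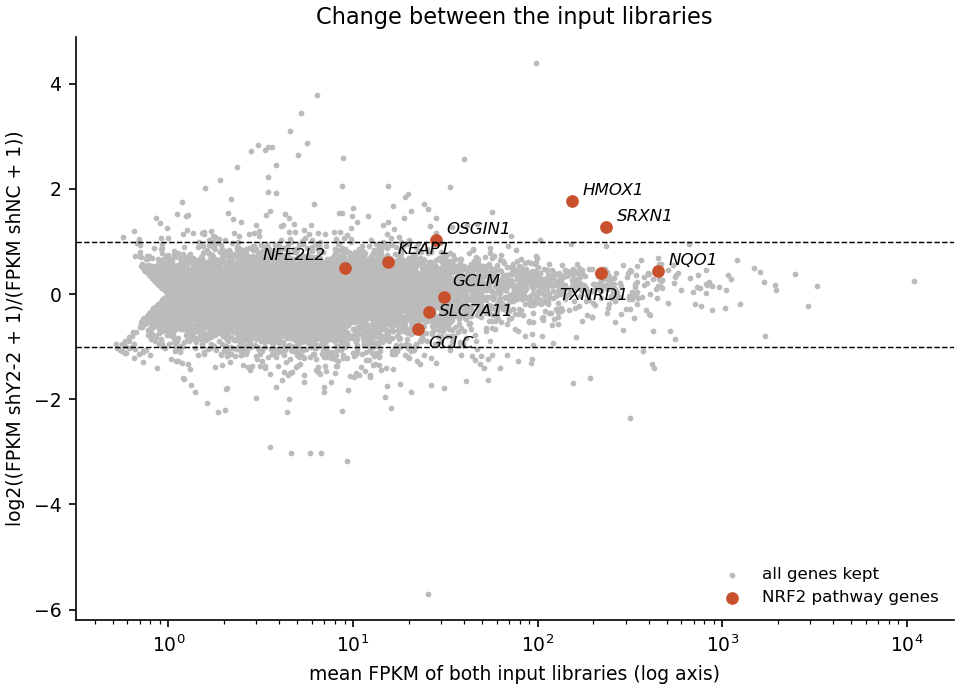
Log2 ratio of shY2-2 over shNC (vertical axis) against the mean FPKM of both input libraries (horizontal log axis) for the 12268 genes kept (grey) and the 10 NRF2 pathway genes (red). Dashed lines mark log2 ratios of 1 and -1, and HMOX1, SRXN1 and OSGIN1 lie above the upper line.

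The other genes of the pathway, 81 genes in 7 lists, had a median log2 ratio of 0.12. Of these, 75 were kept, 45 with a ratio above 0 and 30 with a ratio below, beside 6166 and 6102 of all genes kept. A log2 ratio above 1 was seen for 2 of the 75 and below -1 for 2, beside 0.986% and 2.14% of all genes kept. Those above 1 were MAFG and MAFF, small MAF proteins, which dimerise with NRF2 on DNA. The remaining small MAF gene, MAFK, had an FPKM of 15.1 in shNC and 16.5 in shY2-2, a log2 ratio of 0.12. MAFG had an FPKM of 9.84 in shNC and 31.4 in shY2-2, a log2 ratio of 1.58. MAFF was barely expressed, with an FPKM of 0.291 and 1.69 and a log2 ratio of 1.06, which fell to 0.34 with a pseudocount of 5. The list of NRF2 partners and turnover factors, 12 of 12 kept, had a median of 0.08. BACH1, a repressor that competes with NRF2 for the same DNA elements and for HMOX1 in particular, was the lowest of that list, with an FPKM of 2.03 in shNC and 1.36 in shY2-2 and a log2 ratio of -0.36.

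Among the 19 of 20 genes of glutathione use and export that were kept, the median log2 ratio was 0.18. GPX1, a selenoprotein peroxidase, was the 1 gene of this list below -1, at an FPKM of 63.8 in shNC and 30.2 in shY2-2 and a log2 ratio of -1.05, while GSTA4 was the highest at 0.62. In the same list GSS, glutathione synthetase, had an FPKM of 49.2 in shNC and 63.5 in shY2-2 and a log2 ratio of 0.36. SLC3A2, the partner chain of SLC7A11, had a log2 ratio of 0.18. Among the 500 genes closest in mean FPKM, these ratios were at percentile 79.6 for GSS and 52.2 for SLC3A2. GSS, SLC3A2 and MAFK were named after their values were seen. GPX1 did not stay below -1 with a pseudocount of 5, where its log2 ratio was -0.97. Heme and iron genes were kept in full, 10 of 10, and 9 of them were above 0, beside 6166 of all 12268 genes kept. Their median was 0.25. The exception was SLC40A1, the iron exporter ferroportin, with an FPKM of 4.49 in shNC and 1.02 in shY2-2 and a log2 ratio of -1.44, which was -0.66 with a pseudocount of 5. HMOX2, the constitutive heme oxygenase, was the highest at 0.73.

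The remaining lists had no gene past the limit in either direction. Thioredoxin and peroxiredoxin genes, 11 of 13 kept, had a median log2 ratio of 0.05 and ranged from -0.33 for SESN2 to 0.40 for PRDX4. Detoxification genes, 15 of 16 kept, had a median of -0.06 and ranged from -0.71 for EPHX1 to 0.80 for NR0B1. The list held NR0B1 although it encodes a nuclear receptor and not a detoxification enzyme. The NADPH supply genes, 6 of 6 kept, had a median of -0.01. PGD, an NADPH-producing enzyme of the pentose phosphate pathway, was the lowest of these, with an FPKM of 712 in shNC and 393 in shY2-2 and a log2 ratio of -0.86, and TKT was the highest at 0.13. Of 4 superoxide and peroxide enzymes 2 were kept, CAT at -0.06 and SOD1 at 0.36. These ratios describe 1 library against 1 library.

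**Figure D3:**
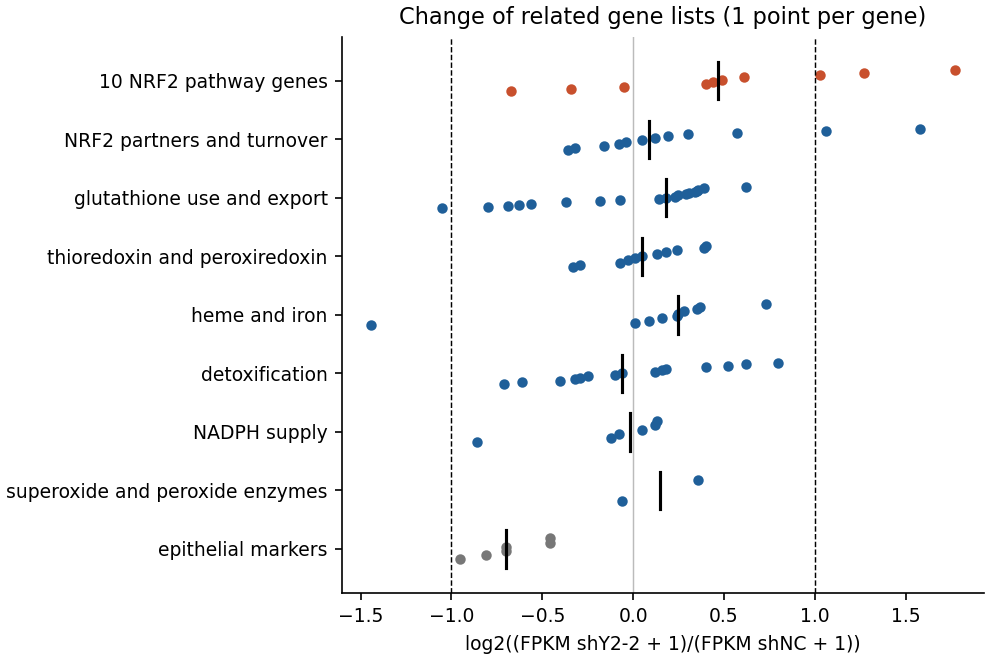
Log2 ratio of shY2-2 over shNC for every gene kept of the 10 NRF2 pathway genes (red), the 7 wider lists (blue) and the epithelial markers (grey). Each point is 1 gene, black bars are medians and dashed lines mark 1 and -1. The median of the 10 genes is 0.47, above those of the wider lists, which run from -0.06 to 0.25.

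Known antioxidant response elements carry the core TGACNNNGC, so this motif was searched on both strands of the RefSeq promoters of GRCh38.p14 (250 bases before to 50 after the start site). The table held 8 of the 10 genes with 11 promoters. Of these, 4 promoters contained the motif, beside 4687 of all 35116 promoters (13.3%). NFE2L2, NQO1, GCLC, SRXN1 and OSGIN1 had no match in this window, HMOX1 and SLC7A11 were not in the table, and a match is not evidence of binding. The windows of the matches are shown because the motif is the sequence through which the pathway is known to act. Each has 30 bases of the promoter strand with the match in capitals, and on the reverse strand the capitals read GCNNNGTCA.
KEAP1, 54 bases before the start, chr19:10502806-10502835, − strand: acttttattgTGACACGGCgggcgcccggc
KEAP1, 31 bases before the start, chr19:10502783-10502812, − strand: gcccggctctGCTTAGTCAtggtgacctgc
GCLM, 34 bases before the start, chr1:93909445-93909474, − strand: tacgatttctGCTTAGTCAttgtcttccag
TXNRD1, upstream start, 99 bases before it, chr12:104215670-104215699, + strand: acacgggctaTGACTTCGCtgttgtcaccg
TXNRD1, upstream start, 8 bases before it, chr12:104215761-104215790, + strand: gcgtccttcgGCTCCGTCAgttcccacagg
TXNRD1, downstream start, 102 bases before it, chr12:104286920-104286949, + strand: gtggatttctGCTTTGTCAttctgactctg
The genes with a match had log2 ratios of 0.61 (KEAP1), 0.40 (TXNRD1) and -0.05 (GCLM). Of the 3 genes with a ratio above 1, SRXN1 and OSGIN1 had no match.

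The authors called m6A peaks separately for shNC and shY2-2, each from 1 IP and 1 input library, and the fold enrichment is the authors' ratio of IP over input. The lists held 31057 distinct peaks in shNC and 27344 in shY2-2. The study reported fewer peaks for each condition, so the shares here refer to the deposited lists and not to its reported peaks. The NRF2 pathway genes had 30 of them in shNC and 33 in shY2-2. A peak was present in both lists for 9 of the 10 genes, beside 72.8% of the genes kept. Of the 30 shNC peaks, 23 shared at least 1 base of exon with a shY2-2 peak, beside 55.9% of all shNC peaks. Of the 33 shY2-2 peaks, 25 met a shNC peak, beside 65.4% of all shY2-2 peaks. These counts include 2 nested NQO1 entries for 1 region in each list, chr16:69710468-69710583 and chr16:69710472-69710532. Differences in which peaks were called have no replicate check. The shares over all genes and all peaks, here and below, were not matched for RNA level. The part of RNA level in these differences was not tested.

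SRXN1 was the gene without a peak under its own name. The authors' lists held 4 shNC and 6 shY2-2 peaks over exons of SRXN1 under AL121758.1, a gene model that shares 2292 nt of exon on the same strand and had an FPKM of 0.0694 in shNC and 0.115 in shY2-2, against 138 and 334 for SRXN1. They came in near-identical pairs, so 2 regions in shNC and 3 in shY2-2 were distinct. They are given for SRXN1 below and are not in the counts of 30 and 33. Conversely, among peaks named for a pathway gene, 4 of 30 in shNC and 8 of 33 in shY2-2 shared no base with its canonical transcript in GENCODE release 44. For TXNRD1 these included peaks in EID3, where the fold enrichment was 2.29 in shNC and 1.67 in shY2-2. Another pair outside the exons of TXNRD1 had 2.51 in shNC (FDR 0.171) and 5.49 in shY2-2 (FDR 0.00661), and neither pair was counted as its strongest.

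The median fold enrichment of the pathway genes' peaks was 1.62 in shNC and 1.65 in shY2-2, below the medians of 2.17 and 2.26 over all peaks. An FDR of at most 0.05 was held by 60.0% of their shNC peaks and 72.7% of their shY2-2 peaks, beside 56.4% and 52.1% of all peaks. The authors placed 63.3% and 60.6% of the pathway genes' peaks in 3′-UTRs, beside 59.1% and 59.5% overall. GGAC was in 46.7% and 45.5% of these peaks, beside 61.0% and 60.6% of all peaks, and its density was 2.82 and 3.35 per kb of peak, beside 4.10 and 3.95. The density of DRACH was 18.2 and 17.6 per kb, beside 19.4 and 18.8. None of these comparisons with all peaks was matched for RNA level.

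**Figure D4:**
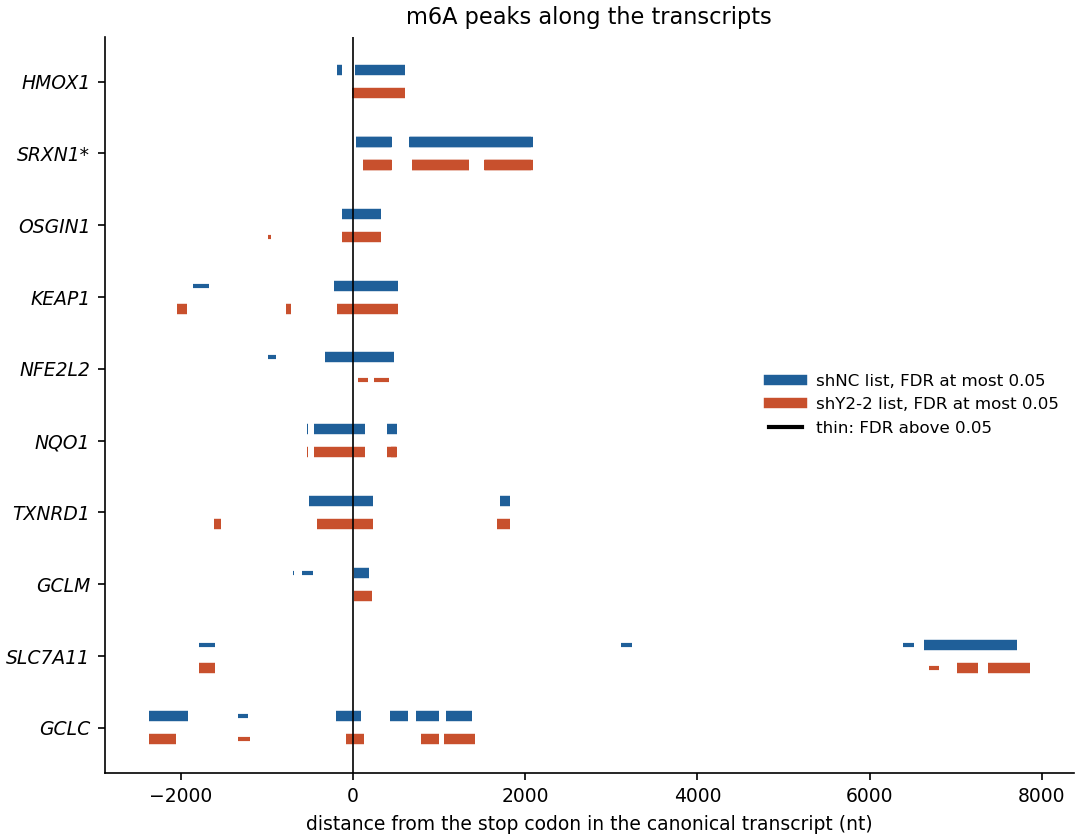
m6A peaks of the 10 genes along their canonical transcripts, as distance from the stop codon in nt (0, black line, negative in the coding region and 5′-UTR), in the shNC list (blue, upper row of each gene) and the shY2-2 list (red, lower row). Thick bars have an FDR of at most 0.05 and thin bars a higher one, peaks without a base in the canonical transcript are not drawn, and the SRXN1 bars (asterisk) are the peaks listed as AL121758.1. All 10 genes have a peak near or downstream of the stop codon in both lists.

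HMOX1 carried the strongest peak of the set in both lists. It covered nearly the whole 3′-UTR, chr22:35393620-35394214 in shNC and chr22:35393591-35394214 in shY2-2, from 22 nt past the stop codon in shNC and from 7 nt before it in shY2-2 to 609 nt past it. The fold enrichment was 8.05 in shNC (FDR 2.51e-39), at percentile 94.6 of its list, and 9.63 in shY2-2 (FDR 1.00e-156), at percentile 96.3. A further HMOX1 peak upstream had a fold enrichment of 4.2 in shNC (239 nt) and 2.34 in shY2-2 (90 nt), with an FDR of 2.69e-07 and 3.98e-13. Only 52 nt of this shNC peak and 0 nt of this shY2-2 peak lay in the canonical HMOX1 transcript. No GGAC lay in the 3′-UTR peak, whose DRACH window is the HMOX1 sequence above.

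SRXN1 and OSGIN1 were the other genes past the limit in RNA. The SRXN1 peak at chr20:646626-648057 in shNC lay in the 3′-UTR with a fold enrichment of 3.8 (FDR 1.58e-64). In shY2-2 this stretch held 2 peaks, chr20:646626-647192 with a fold enrichment of 3.17 (FDR 1.00e-195) and chr20:647364-648023 with 1.49 (FDR 1.26e-69). The near-identical entry for the same stretch, chr20:646645-648053 in shNC and chr20:646645-647184 in shY2-2, had 2.35 (FDR 1.58e-59) and 2.55 (FDR 1.00e-193). The SRXN1 value was thus higher in shNC by the first entry and higher in shY2-2 by the other, and no direction can be read from it. The 567 nt in common to the first pair held 4 GGAC. The OSGIN1 peak had the same bounds in both lists, chr16:83965885-83966332, and spanned the stop codon from 122 nt before it to 325 nt past it, with 4 GGAC. Its fold enrichment was 3.33 in shNC (FDR 1.00e-24) and 2.8 in shY2-2 (FDR 1.26e-39). OSGIN1 had a second peak in shY2-2 only, in the coding region, with a fold enrichment of 1.17 and an FDR of 0.0891.

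The regulators had peaks across or past their stop codons. The KEAP1 peak ran from chr19:10486120 to 10489239 in shNC and to 10489209 in shY2-2, covered the whole 3′-UTR, and had a fold enrichment of 2.42 in shNC (FDR 1.26e-18) and 2.48 in shY2-2 (FDR 2.00e-34). KEAP1 also had a 5′-UTR peak in the shY2-2 list alone, with a fold enrichment of 5.78 at an FDR of 0.0457. NFE2L2 had 1 peak of 808 nt over its stop codon in shNC, with a fold enrichment of 2.37 (FDR 6.03e-05). In shY2-2 the same stretch held 2 shorter peaks of 1.57 and 1.37, with FDRs of 0.0813 and 0.0955. NFE2L2 was therefore the one gene with peaks in both lists that had none at an FDR of at most 0.05 in shY2-2.

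NQO1 and TXNRD1, the most abundant transcripts, had weak enrichment with very small FDRs. The peak of NQO1 at chr16:69710830-69715007 had the same bounds in both lists, spanned the stop codon, and had a fold enrichment of 1.56 in shNC (FDR 1.00e-201) and 1.73 in shY2-2 (FDR deposited as 0). The corresponding TXNRD1 peak, chr12:104327575-104348658 in shNC and chr12:104327665-104348658 in shY2-2, had a fold enrichment of 1.64 (FDR 3.98e-46) and 1.65 (FDR 2.00e-63). Both values lay below the median of their list. An FDR depends on the reads behind a peak as well as on its enrichment, so FDRs of genes at different levels are not a ranking of methylation.

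GCLC had more shNC peaks than any other of the 10 genes, 7 in shNC and 6 in shY2-2. Of these, 5 in shNC and 4 in shY2-2 had an FDR of at most 0.05. In each list 1 of them shared no base with its canonical transcript. GCLC was the only one of the 10 whose strongest shared peak lay in the 5′-UTR. That peak, chr6:53544641-53564167 in shNC and chr6:53544791-53564137 in shY2-2, had a fold enrichment of 3.28 (FDR 2.51e-21) and 2.31 (FDR 2.88e-06). A 3′-UTR peak of GCLC had the opposite order, 1.94 in shNC (FDR 0.000120) and 3.58 in shY2-2 (FDR 9.55e-05). GCLM had a 3′-UTR peak of 1.96 in shNC (FDR 1.58e-12) and 2.05 in shY2-2 (FDR 3.98e-20), starting 13 nt past the stop codon. SLC7A11 differed in position, since its strongest shared peak lay near the end of a long 3′-UTR, with a fold enrichment of 1.72 in shNC (FDR 1.45e-05) and 2.18 in shY2-2 (FDR 0.00257). The stretch shared by the SLC7A11 peaks started 7380 nt past the stop codon. A shNC peak without a shY2-2 partner, 3117 to 3237 nt past the stop codon, had 2.21 (FDR 0.162).

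Ordered by the shNC fold enrichment of the 1 strongest pair per gene as defined above, the genes ran HMOX1, SRXN1, OSGIN1, GCLC, KEAP1, NFE2L2, GCLM, SLC7A11, TXNRD1 and NQO1. The first 3 were also the first 3 in log2 ratio, but this order depends on the choice of pair. With the other entry of SRXN1, 2.35 in shNC, SRXN1 lay below OSGIN1, GCLC, KEAP1 and NFE2L2. In shY2-2 the shared 3′-UTR peak of GCLC, at 3.58, lay above the SRXN1 and OSGIN1 peaks, and GCLC had the lowest log2 ratio. Peaks in 1 list alone were stronger still, 5.34 for GCLM in shNC (FDR 0.0977) and 5.78 for KEAP1 in shY2-2. Of these, 11 of 181 nt and 116 of 926 nt lay in the canonical transcripts. The shY2-2 peaks of 6.94 named for NQO1, GCLC and SLC7A11 had 0 nt there. HMOX1 was first in log2 ratio and in both lists in any of these choices. The input libraries enter both the fold enrichment and the log2 ratio, and 10 genes of 1 pathway are not independent. Over all genes kept with a shNC peak that had an FDR of at most 0.05 and met a shY2-2 peak, 1.14% of the 2890 genes with a strongest such peak of at least 3 had a log2 ratio above 1, beside 0.730% of the 3970 genes with a weaker one. These shares are 33 and 29 genes, and the share over all genes kept was 0.986%. The median log2 ratios of the groups were 0.07 and 0.02. The comparison and its limit of 3 were added after the values of the 10 genes were seen. Ratios below -1 were not compared, and a link between peak strength and RNA change was not tested.

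**Figure D5:**
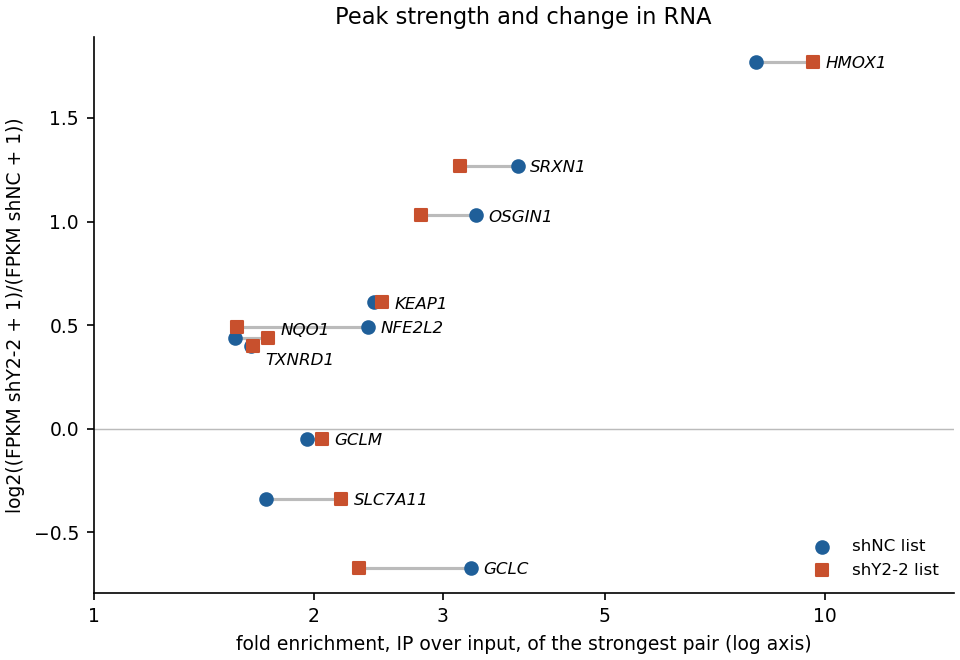
Log2 ratio in RNA (vertical axis) against the fold enrichment of the strongest peak shared by both lists (1 pair per gene, horizontal log axis), in the shNC list (blue circles) and the shY2-2 list (red squares), joined for each of the 10 genes. SRXN1 is drawn at 3.8 and 3.17, and its other entry had 2.35 and 2.55. HMOX1 has both the highest fold enrichment, 8.05 and 9.63, and the highest log2 ratio, and GCLC has a fold enrichment of 3.28 and 2.31 with the lowest log2 ratio.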

How the data were processed

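Samples were grouped by their labels into shNC and shY2-2 input and IP libraries of A549 cells. Per the labels and the study's methods, libraries were strand-specific, the authors' alignment to GRCh38 used HISAT2, and StringTie gave the deposited FPKM values of the input libraries. The authors called peaks with exomePeak for each condition, and ChIPseeker placed the peaks. Each deposited peak came with a p-value, scores (log10 of p and of FDR) and a fold enrichment, the linear ratio of IP over input, all used as the authors gave them. The limit for calling peaks was not given in the sources used here, and the largest deposited p-value was 0.049.

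Log2 ratios used a pseudocount of 1 and a minimum FPKM of 1 in either input library, which kept 12268 of 28283 genes. For the 11153 genes that reached this minimum in both, the median log2 ratio was 0.01, and no scaling was added. No count test was used, since FPKM values are not counts, and of low values in single-exon genes only 20.5% (shNC) and 19.4% (shY2-2) were whole multiples of the commonest value within 2%. Depth behind a value is therefore unknown and no interval was given. Distinct peaks were compared by shared exon bases on the same strand and placed on the canonical transcripts of GENCODE release 44. All 10 genes were named, with the highest and lowest gene of each wider list, every gene of those lists past a log2 ratio of 1 or -1, and YTHDF2. The genes and lists were chosen with earlier results of these data known. Alternatives were other pseudocounts, filters, centring, a 1.5-fold limit, stricter peak filters and a larger overlap. The steps were tested on simulated data. Software was pandas 2.3.3, NumPy 2.4.6, pysam 0.24.0 and matplotlib 3.10.9 under Python 3.11.15.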

Additional observations from a re-analysis of the deposited data

How the results depend on the processing

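Of 39 recomputed values, 29 stayed near the value reported (counts within 1.5 times, medians within 0.1), 10 moved further and none reversed. This tally is not a measure of stability, since some outcomes were fixed in advance. All 10 genes pass with no filter and at an FPKM of at least 5, so these settings could not change their values. Counts, which make up most of the 39, cannot reverse. The count of genes with a log2 ratio above 1 was 3 with a pseudocount of 0.1 and 2 with a pseudocount of 5, where OSGIN1 was at 0.90, while the share of all genes above 1 was 2.57% and 0.351%. At a 1.5-fold limit 4 genes were above (beside 5.38% of all genes) and 1, GCLC, was below (8.92%). With an FDR of at most 0.05 the lists kept 18 shNC and 24 shY2-2 peaks of the 10 genes, of which 16 and 18 met one of the other list. With a fold enrichment of at least 2 there were 11 shNC and 14 shY2-2 peaks, of which 7 and 6 met a peak of the other list. With an FDR of at most 0.001 there were 15 and 12 peaks, of which 11 and 11 did. Leaving out peaks outside the exons of the named gene or in exons of another gene, an alternative chosen after the data were seen, left 28 and 27 peaks, of which 21 and 23 met one. The filters on FDR and enrichment keep fewer peaks by construction. No share over all peaks at the same filter is given, so these overlap counts cannot be called high or low. No paired analysis was possible because each condition had 1 library of each kind, and no replicate could be left out for the same reason.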

Other observations

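Some fold enrichments recurred many times in the peak lists. In the shY2-2 list, 1376 peaks (5.03%) had a fold enrichment of exactly 6.94, with a median FDR of 0.979 against 0.0417 over the whole list. Of the pathway genes' peaks, 3 had this value: 1 of NQO1 at an FDR of 0.0427, 1 of GCLC in an exon of another gene and 1 of SLC7A11 in an exon of SLC7A11-AS1, both at an FDR of 0.979. The KEAP1 5′-UTR peak of 5.78 was 1 of 462 shY2-2 peaks with that value, and the upstream HMOX1 peak of 4.2 was 1 of 378 such shNC peaks. The shY2-2 value of the strongest shared GCLC peak, 2.31 (FDR 2.88e-06), was 1 of 743 (2.72%), with a median FDR of 0.133. The 3′-UTR values of HMOX1, 8.05 and 9.63, occurred once in their lists.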
